A study of Mus musculus with 4 samples.

Results

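The cells described here are a subset of the sinusoidal endothelium of mouse femoral bone marrow. They carried UMIs of at least 2 of the genes Ramp3, Piezo2, Pcdh17 and Ednrb. Ramp3 and Piezo2 give the subset its working name, but 222 of the 519 members held UMIs of both. The members numbered 519 of the 18543 cells that passed the quality filter in 4 single-cell RNA libraries. A cell was a member when it had at least 500 genes, at least 1000 UMIs (unique molecular identifiers, one per captured transcript) and at most 10% mitochondrial UMIs, and when it met 4 further conditions. It had at least 1 UMI of the endothelial genes Cdh5 or Pecam1, at least 1 UMI of the sinusoidal gene Stab2 and at least 1 UMI in 2 or more of Ramp3, Piezo2, Pcdh17 and Ednrb. It had no UMI of the arterial genes Gja5 and Sema3g, and fewer than 20 UMIs of Col1a2 plus Cxcl12 per 10000 UMIs, a limit that keeps out stromal cells. These UMI counts chose the cells, so the levels of these genes are given as a description.

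Sinusoids are the wide, thin-walled venous vessels of the marrow through which blood cells enter and leave the tissue. Their endothelium rests on a sparse basement membrane, takes up waste macromolecules through scavenger receptors and displays adhesion molecules for passing leukocytes. Of the genes that define the subset, Ramp3 encodes an accessory protein of the receptors for adrenomedullin, Piezo2 a stretch-gated cation channel, Pcdh17 a protocadherin and Ednrb an endothelin receptor. Aplnr encodes the apelin receptor, a marker of venous and sprouting endothelium.

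All mice carried the Rag2-/-gammac-/- genotype on a C57BL/6 background and so lacked lymphocytes of their own in every group. The Graft_D40 and Graft_D19 libraries came from femurs into which DOHH2 cells, a human follicular lymphoma line, had been placed 40 and 19 days earlier. The Sham_D40 library came from femurs given saline (PBS) and harvested at day 40, and the Ctrl library from mice left ungrafted. Endothelial cells entered all 4 libraries through a sort for Cd31 and Sca1, alongside sorted stromal cells, and there was no sham at day 19. Each group was 1 library, so the values have no replicate check, and every interval below covers counting error alone.

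The members were distributed unevenly over the libraries. Graft_D40 held 204, Graft_D19 held 224, Sham_D40 held 63 and Ctrl held 28, which makes Ctrl the weakest source of levels. They were compared with the 2496 sinusoidal cells that met all other conditions but had UMIs in fewer than 2 of the 4 genes, 230 in Graft_D40 and 656 in Graft_D19, against 670 in Sham_D40 and 940 in Ctrl, called the other sinusoidal cells below. The median member cell had 10323.5 UMIs in Graft_D40 and 11915.5 in Graft_D19, against 8928 in Sham_D40 and 5521 in Ctrl. The medians of the other sinusoidal cells were 7469.5 in Graft_D40 and 8556.5 in Graft_D19, against 8898.5 in Sham_D40 and 4878 in Ctrl. A count of 0 summed over members allows up to 3 UMIs, which stand for 1.28 CPM (UMIs per 1000000 UMIs of the summed cells) in Graft_D40 and 1.01 in Graft_D19, against 4.84 in Sham_D40 and 16.7 in Ctrl. No member barcode was shared between libraries, and 8 members were called doublets.

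Most genes that check the label of sinusoidal endothelium were present in the members, although several lay lower than in the other sinusoidal cells. Over 13 sinusoidal identity genes, the median log2 ratio of members over those cells was -0.89 in Graft_D40 and -0.90 in Graft_D19. The median was -0.54 in Sham_D40 and -0.17 in Ctrl. Plvap, the protein of fenestral diaphragms, stood at 1637 CPM in the members of Graft_D40 and 1815 in Graft_D19, against 1719 in Sham_D40 and 1822 in Ctrl. The scavenger receptor Stab1 stood at 542 CPM in Graft_D40 and 636 in Graft_D19, against 795 in Sham_D40 and 572 in Ctrl. Flt4, the receptor for lymphangiogenic VEGFs that marrow sinusoids also carry, stood at 432 CPM in Graft_D40 and 483 in Graft_D19, against 624 in Sham_D40 and 472 in Ctrl. These genes were present in all 4 libraries. Lyve1, which marks sinusoids of other organs and lymphatic vessels, was at 0 in 3 libraries and at 0.426 CPM in Graft_D40, and the lymphatic regulator Prox1 was at 3.23 to 16.7 CPM. Ptprc, the leukocyte antigen that the sort excluded, had no UMI in any member.

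Among the genes of the rule, Ramp3 was found at 186 CPM in the members of Graft_D40 and 142 in Graft_D19, against 150 in Sham_D40 and 106 in Ctrl. It had a UMI in 157 of 204 members of Graft_D40 and 161 of 224 of Graft_D19, against 43 of 63 of Sham_D40 and 14 of 28 of Ctrl. Piezo2 was found at 143 CPM in Graft_D40 and 148 in Graft_D19, against 123 in Sham_D40 and 38.9 in Ctrl, where 7 of the 28 members had a UMI of it. Pcdh17 stood at 195 CPM in Graft_D40 and 286 in Graft_D19, against 277 in Sham_D40 and 339 in Ctrl. Ednrb stood at 171 CPM in Graft_D40 and 106 in Graft_D19, against 77.4 in Sham_D40 and 156 in Ctrl. Pcdh17 was highest in Ctrl and lowest in Graft_D40, while Ednrb was lowest in Sham_D40. In the other sinusoidal cells the same 4 genes lay between 1.15 and 60.5 CPM, where the rule caps them.

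Pairs of the 4 genes are given as a description, since the rule chose the cells on these genes. Ramp3 and Piezo2 occurred in the same cell in 97 members of Graft_D40 (47.5%) and 102 of Graft_D19 (45.5%), against 23 of Sham_D40 (36.5%) and 0 of Ctrl. Ramp3 with Ednrb occurred in 94 members of Graft_D40 (46.1%) and 62 of Graft_D19 (27.7%), against 11 of Sham_D40 (17.5%) and 5 of Ctrl (17.9%). Ramp3 with Pcdh17 occurred in 43.1% of members of Graft_D40 and 53.1% of Graft_D19, against 52.4% of Sham_D40 and 42.9% of Ctrl. Pcdh17 with Ednrb occurred in 32.8% of members of Graft_D40 and 25.4% of Graft_D19, against 22.2% of Sham_D40 and 39.3% of Ctrl. The first 2 pairs made up the largest share of members in Graft_D40, which did not hold for these. Members with UMIs in exactly 2 of the 4 genes made up 104 of 204 in Graft_D40 and 125 of 224 in Graft_D19, against 40 of 63 in Sham_D40 and 24 of 28 in Ctrl. All 4 genes were found in 33 members of Graft_D40 and 31 of Graft_D19, against 2 of Sham_D40 and 0 of Ctrl. Ctrl members thus carried mostly the minimum the rule asks for. Their median depth was also the lowest, at 5521 UMIs, against 10323.5 in Graft_D40, 11915.5 in Graft_D19 and 8928 in Sham_D40. The part of depth in these counts was not tested. Just outside the threshold, UMIs in 1 of the 4 genes were found in 117 sinusoidal cells of Graft_D40 and 264 of Graft_D19, against 234 of Sham_D40 and 179 of Ctrl.

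Aplnr and Tcim are listed among the markers of the subset but were not part of the rule's count of genes. Aplnr stood at 486 CPM in members and 207 in the other sinusoidal cells of Graft_D40, and at 616 CPM in members and 225 in the other sinusoidal cells of Graft_D19. It stood at 492 CPM in members and 225 in the other sinusoidal cells of Sham_D40, and at 333 CPM in members and 178 in the other sinusoidal cells of Ctrl. Tcim, a small regulator of transcription and proliferation, stood at 376 CPM in members of Graft_D40 and 418 in Graft_D19, with 398 in Sham_D40 and 272 in Ctrl, against 277 in Graft_D40 and 272 in Graft_D19, with 192 in Sham_D40 and 140 in Ctrl in the other sinusoidal cells. Both were higher in members than in other sinusoidal cells in all 4 libraries. They were also common in the other sinusoidal cells. Aplnr was found in 43.0% (Ctrl) to 60.7% (Graft_D19) of those cells and Tcim in 37.2% (Ctrl) to 63.6% (Graft_D19).

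Because a gene is detected more often in a deeply sequenced cell, shares were taken after each cell had been thinned to 2000 UMIs and shallower cells left out, which removed 2 sinusoidal cells of Graft_D40 and 19 of Graft_D19, against 15 of Sham_D40 and 143 of Ctrl. Members then made up 11.2% of sinusoidal cells in Graft_D40 (33 of 294, exact binomial 95% interval 7.85% to 15.4%) and 6.04% in Graft_D19 (42 of 695, 4.39% to 8.08%). They made up 1.07% in Sham_D40 (7 of 655, 0.431% to 2.19%) and 0.983% in Ctrl (7 of 712, 0.396% to 2.02%). The intervals of both grafted libraries lay above those of both ungrafted ones. They overlapped Sham_D40 at 1000 UMIs, where the shares were 3.59% in Graft_D40 (1.33% to 7.66%) and 2.21% in Graft_D19 (1.11% to 3.92%), against 1.08% in Sham_D40 (0.353% to 2.51%) and 0 in Ctrl (up to 0.638%). With at least 3 of the 4 genes, the interval of Graft_D40 (0.963% to 4.84%) overlapped that of Ctrl (0.0340% to 1.01%), and that of Graft_D19 (0.692% to 2.63%) overlapped those of Sham_D40 (0.00387% to 0.848%) and Ctrl. Without thinning the shares were 47.0% in Graft_D40 and 25.5% in Graft_D19, against 8.59% in Sham_D40 and 2.89% in Ctrl.

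The order of the grafted libraries depended on the denominator. Of all endothelial cells under the stromal limit, members were 3.25% in Graft_D40 (33 of 1015, 2.25% to 4.54%) and 3.75% in Graft_D19 (42 of 1120, 2.72% to 5.04%), against 0.730% in Sham_D40 (7 of 959, 0.294% to 1.498%) and 0.797% in Ctrl (7 of 878, 0.321% to 1.64%). The grafted libraries overlapped on this scale and lay above both ungrafted libraries. Stab2, which every sinusoidal cell needed, stood at 889 CPM in the other sinusoidal cells of Graft_D40 and 1336 in Graft_D19, against 1661 in Sham_D40 and 1425 in Ctrl. Ly6a, which encodes the Sca1 antigen of the sort, stood at 1564 CPM in members of Graft_D40 and 573 in Graft_D19, against 561 in Sham_D40 and 811 in Ctrl. Stab2 was thus lowest and Ly6a highest in Graft_D40. The part of Stab2 detection and of the sort gate in these shares was not tested.

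As a measure of free RNA, UMIs in 2 or more of the 4 genes were found in 2 of 3073 cells without endothelial UMIs in Graft_D40 (0.0651%), 4 of 3156 in Graft_D19 (0.127%), 2 of 2925 in Sham_D40 (0.0684%) and 0 of 2452 in Ctrl. Those cells had medians of 10785 UMIs in Graft_D40 and 8515.5 in Graft_D19, against 9652 in Sham_D40 and 3493 in Ctrl. Stab2 UMIs were found in 2.31% of them in Graft_D40 and 3.74% in Graft_D19, against 5.09% in Sham_D40 and 4.73% in Ctrl. These shares are of other cells than the shares of members. The part of free RNA in the members was not tested.

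**Figure D1:**
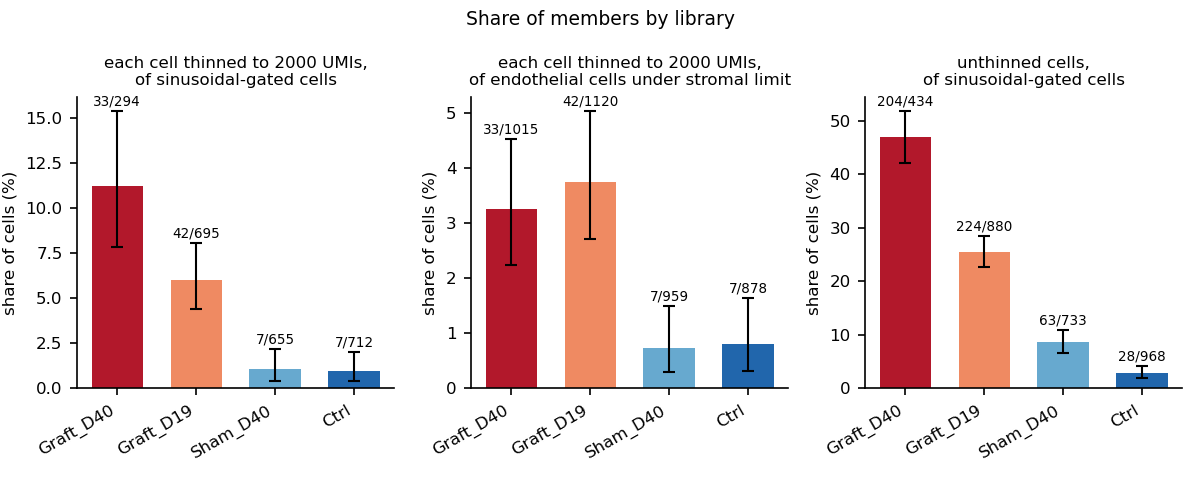
Share of members (percent) in each library, of sinusoidal cells and of endothelial cells under the stromal limit with each cell thinned to 2000 UMIs, and of unthinned sinusoidal cells, with exact binomial 95% intervals for counting error. Of thinned sinusoidal cells, Graft_D40 (11.2%) and Graft_D19 (6.04%) lie above Sham_D40 (1.07%) and Ctrl (0.983%).

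A small set of genes differed in the same direction between members and the other sinusoidal cells in all 4 libraries. A gene was called when it averaged at least 20 CPM over the compared cells, differed by at least 1.5-fold on the log2(CPM + 1) scale and had a 95% interval of the ratio that excluded 1. Of 5665 genes measured in every library, 33 were called higher in members in all 4 libraries (0.583%) and 22 lower in all 4 (0.388%). Without Ctrl, the numbers were 78 and 88 of 6272 genes. With each cell thinned to 2000 UMIs, which left few members in the ungrafted libraries, 1 was called higher and 2 lower in all 4. With members that had exactly 2 of the 4 marker genes, 14 were called higher and 11 lower. The rule chose the cells on this contrast, so these genes describe the members and carry no test.

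The sialomucin Cd34, more typical of arterioles and capillaries than of marrow sinusoids, ranked first by its smallest ratio over the libraries. It stood at 375 CPM in members of Graft_D40 and 219 in Graft_D19, with 147 in Sham_D40 and 77.8 in Ctrl, against 80.7 in Graft_D40 and 32.2 in Graft_D19, with 9.67 in Sham_D40 and 8.98 in Ctrl in the other sinusoidal cells. The log2 ratios were 2.20 in Graft_D40 and 2.73 in Graft_D19, against 3.79 in Sham_D40 and 2.98 in Ctrl. In both kinds of cell the grafted libraries were higher. Sparcl1, a secreted matrix glycoprotein, stood at 134 CPM in members of Graft_D40 and 172 in Graft_D19, with 182 in Sham_D40 and 206 in Ctrl, against 22.5 to 47.9 CPM in the other sinusoidal cells. Ly6c1, a surface antigen found mainly on other endothelium, stood at 931 CPM in members of Graft_D40 and 410 in Graft_D19, with 540 in Sham_D40 and 872 in Ctrl, against 119 to 452 CPM in the other sinusoidal cells.

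Other genes of the higher group have varied roles. The log2 ratio of members over other sinusoidal cells lay between 0.96 and 1.75 over the libraries for Podxl, a sialomucin of the vessel lumen. It lay between 1.03 and 1.53 for Fxyd5, a modulator of the sodium pump and of adhesion, and between 1.15 and 1.92 for the membrane protein Emp1. Pmepa1, a target and inhibitor of TGF-beta signalling, ranged between 0.92 and 1.41, and Rtl8a, a gene derived from a retrotransposon, between 0.96 and 1.40. Igfbp3, a carrier of insulin-like growth factors, ranged between 1.16 and 1.53, but 73.3% of its UMIs in Sham_D40 members and 84.6% in Ctrl members lay in 1 cell.

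Type IV collagen, the network-forming collagen of basement membranes, was higher in members. Col4a1 stood at 1829 CPM in members of Graft_D40 and 1497 in Graft_D19, with 929 in Sham_D40 and 605 in Ctrl, against 845 in Graft_D40 and 679 in Graft_D19, with 386 in Sham_D40 and 245 in Ctrl in the other sinusoidal cells. In both kinds of cell the grafted libraries were higher. Over all genes, 5.4% were called higher in members of Graft_D40 and 4.17% in Graft_D19, against 6.2% in Sham_D40 and 5.14% in Ctrl. Of the basement membrane genes measured, 10 of 15 were higher in members of Graft_D40 and 1 lower, 10 of 15 were higher in Graft_D19, 9 of 13 in Sham_D40 and 4 of 11 in Ctrl. The median log2 ratio of this list was 0.86 in Graft_D40 and 1.08 in Graft_D19, against 0.98 in Sham_D40 and 0.45 in Ctrl.

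Several genes typical of sinusoids and venules were lower in members. Ackr1, the atypical chemokine receptor of venules, stood at 69.8 CPM in members of Graft_D40 and 73.9 in Graft_D19, with 106 in Sham_D40 and 317 in Ctrl, against 294 in Graft_D40 and 380 in Graft_D19, with 589 in Sham_D40 and 729 in Ctrl in the other sinusoidal cells. The log2 ratio lay between -2.78 and -1.20 over the libraries for Cxadr, a junctional adhesion protein, and between -1.98 and -1.11 for Adgrg6, an adhesion receptor that binds type IV collagen. It lay between -3.04 and -0.94 for the ubiquitin-like Ubd and between -3.94 and -1.22 for the microtubule-associated kinase Dclk1. For these 4 genes the ratio nearest 0 was that of Ctrl. The angiogenic ligand Vegfa ranged between -1.72 and -0.92. Over all genes, 5.96% were called lower in members of Graft_D40 and 3.89% in Graft_D19, against 4.17% in Sham_D40 and 2.1% in Ctrl. Of 13 sinusoidal identity genes measured, 8 were lower and 1 higher in members of Graft_D40 and 10 lower in Graft_D19, against 5 lower in Sham_D40 and 1 lower in Ctrl. The median log2 ratio of this list was -0.89 in Graft_D40 and -0.90 in Graft_D19, against -0.54 in Sham_D40 and -0.17 in Ctrl.

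**Figure D2:**
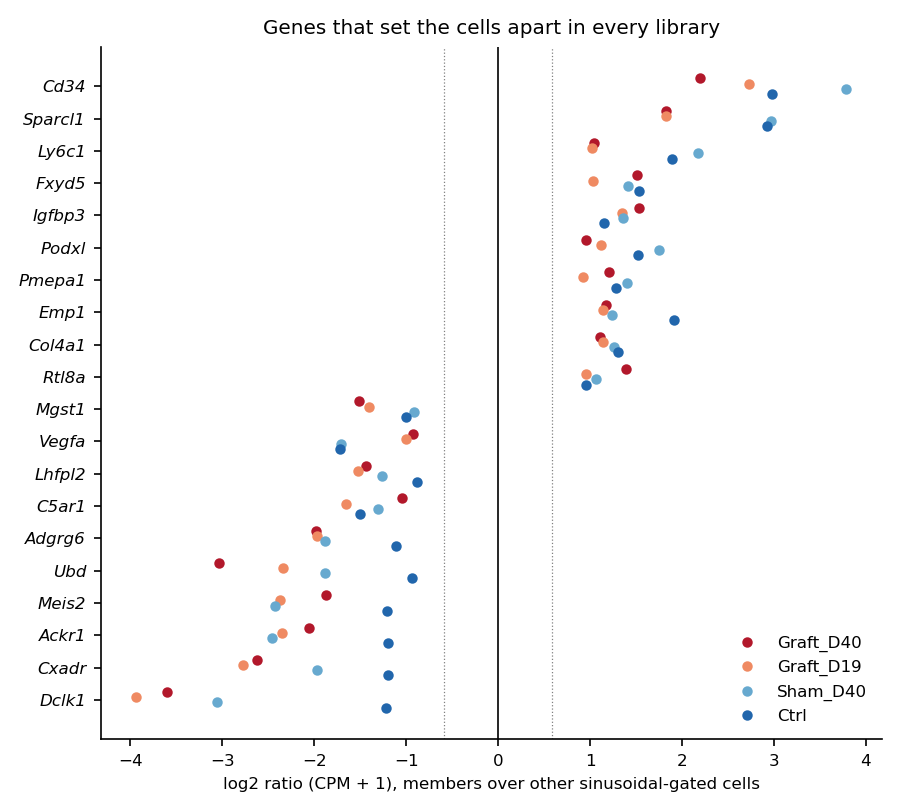
Level in members over level in the other sinusoidal cells of the same library (log2 ratio of CPM + 1) for genes called in the same direction in all 4 libraries, 1 point per library. Cd34 lies between 2.20 and 3.79, and Dclk1 lies between -3.94 and -1.22.

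Within the sinusoidal cells, levels differed with the number of the 4 genes detected. In Graft_D40, Cd34 stood at 24.4, 139, 260, 423 and 537 CPM in cells with UMIs in 0, 1, 2, 3 and 4 of the genes. Col4a1 stood at 608, 1088, 1668, 1815 and 2177 CPM, and Aplnr at 179, 236, 385, 572 and 565 CPM. Stab2 ran the other way, at 982, 792, 533, 334 and 140 CPM, as did Ackr1 at 346, 242, 111, 52.1 and 11.5 CPM. Il6st, the shared signalling subunit of the interleukin-6 receptor family, ran down as well, at 1786, 1657, 812, 465 and 245 CPM. These are levels within 1 library, and cells with more UMIs reach a higher number more often.

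In Graft_D19 these genes ran in the same directions at every step. In Sham_D40, Stab2, Col4a1 and Il6st did so, while Cd34, Aplnr and Ackr1 broke the order at 1 or more steps. In Ctrl, Stab2, Cd34 and Il6st did so, while Aplnr, Col4a1 and Ackr1 broke it. In Graft_D19, Stab2 stood at 1458, 1179, 820, 602 and 235 CPM for 0 to 4 genes, and Cd34 at 19.4, 48.8, 128, 205 and 563 CPM. In Sham_D40, Cd34 stood at 4.51, 17.99, 59.1, 276 and 138 CPM for 0 to 4 genes, the last in 2 cells, and in Ctrl at 5.46, 21.7, 47.0 and 224 CPM for 0 to 3 genes, the last in 4 cells. Igfbp5, a carrier of insulin-like growth factors that binds matrix, did not follow one order. It stood at 484, 1383, 3668, 3267 and 3340 CPM in Graft_D40 and at 250, 414, 749, 443 and 45.6 CPM in Graft_D19.

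**Figure D3:**
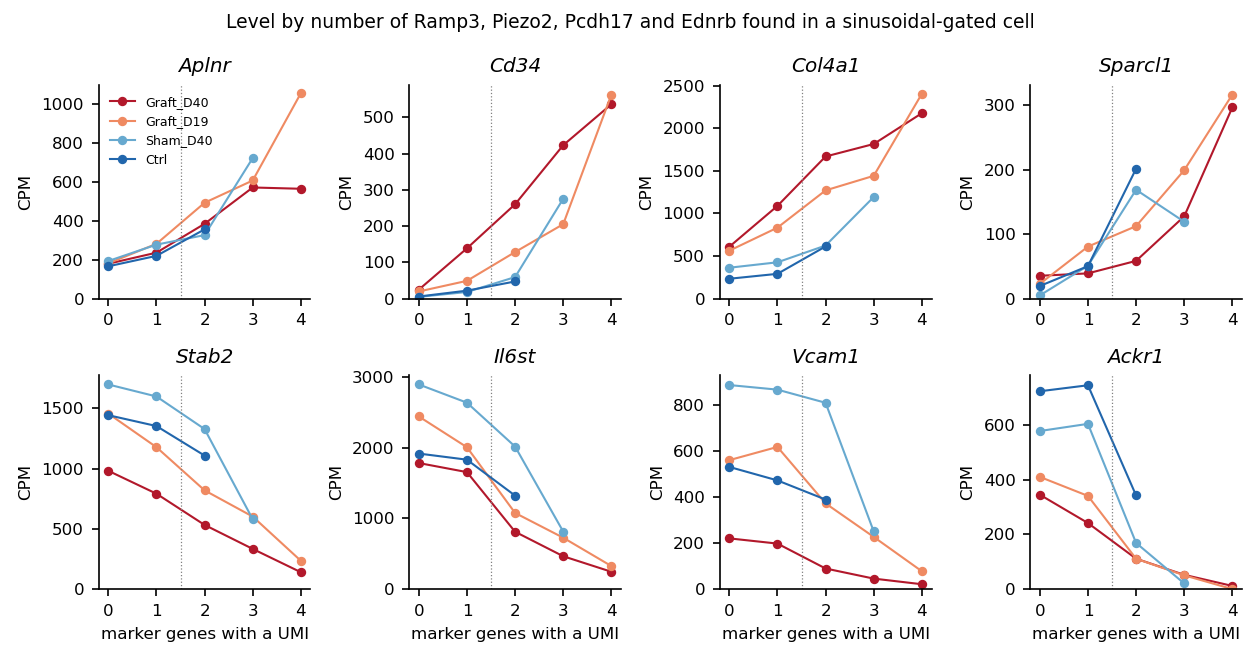
Level (CPM) of selected genes in sinusoidal cells grouped by how many of Ramp3, Piezo2, Pcdh17 and Ednrb had a UMI, 1 line per library. In Graft_D40, Stab2 ran down to 140 CPM and Cd34 up to 537 CPM in cells with all 4.

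Promoters are shown for Ramp3, which defines the subset, and for Cd34 and Igfbp3, which were called higher in its members in all 4 libraries. Among cells with exactly 2 of the 4 genes, however, Igfbp3 stood at 13.4 CPM in Ctrl and 19.7 in Sham_D40. Cells with 0 of them stood at 31.7 CPM in Ctrl and 27.6 in Sham_D40. They are RefSeq entries of build GRCm38.p6, and capitals mark matches to ETS core motifs (CAGGAA or CCGGAA) or to a SOX core motif (ACAAT) on either strand, the motifs of 2 families of transcription factors that are active in endothelium. The Ramp3 promoter lies at chr11:6658283-6658582 on the plus strand, that of Cd34 at chr1:194938571-194938870 on the plus strand and that of Igfbp3 at chr11:7213874-7214173 on the minus strand.
Ramp3: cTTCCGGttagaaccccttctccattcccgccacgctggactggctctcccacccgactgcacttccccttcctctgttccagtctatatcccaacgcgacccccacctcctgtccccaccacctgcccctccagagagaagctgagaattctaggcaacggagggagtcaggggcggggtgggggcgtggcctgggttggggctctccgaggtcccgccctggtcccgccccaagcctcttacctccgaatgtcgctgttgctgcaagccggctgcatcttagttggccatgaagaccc
Cd34: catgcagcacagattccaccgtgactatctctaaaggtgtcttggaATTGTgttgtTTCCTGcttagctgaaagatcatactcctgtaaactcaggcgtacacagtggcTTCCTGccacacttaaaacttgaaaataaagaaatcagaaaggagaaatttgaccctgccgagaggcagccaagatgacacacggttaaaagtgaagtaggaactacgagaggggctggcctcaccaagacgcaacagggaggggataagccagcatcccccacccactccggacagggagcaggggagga
Igfbp3: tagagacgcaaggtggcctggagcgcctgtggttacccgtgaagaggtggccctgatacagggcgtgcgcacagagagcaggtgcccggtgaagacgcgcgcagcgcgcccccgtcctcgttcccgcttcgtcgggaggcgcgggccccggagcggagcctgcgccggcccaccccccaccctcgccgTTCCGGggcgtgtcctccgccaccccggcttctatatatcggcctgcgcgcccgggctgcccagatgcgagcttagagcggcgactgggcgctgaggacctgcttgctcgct
Of 15 genes looked up, 12 had a promoter entry, 6 of these held an ETS core match and 3 a SOX core match. Each promoter shown held an ETS core match. Of those not shown, Pcdh17, Ednrb, Col4a1, Ly6c1 and Igfbp5 held no match to any of the motifs. Emp1, Fxyd5, Rtl8a and Col18a1 held a match to an ETS core, the SOX core or both. Among all 32851 promoters of the table, 41.4% held either ETS core and 31% the SOX core, so such matches are common in windows of this length and describe letters only.

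Late after grafting, members had more Igfbp5 RNA and more RNA of several basement membrane and interferon-stimulated genes, and less RNA of sinusoidal identity, leukocyte adhesion and immediate early genes. The insulin-like growth factor binding proteins did not move as a group, with 3 of 9 measured higher, 2 lower and a median log2 ratio of -0.04. In Graft_D40 over Sham_D40, of 6791 genes measured, 461 were called higher (6.79%) and 523 lower (7.7%), with a median log2 ratio over all genes of 0.00. In the other sinusoidal cells, 327 of 6738 genes were called higher (4.85%) and 282 lower (4.19%). For scale, the ungrafted libraries themselves differed, with 660 of 6605 genes called higher (9.99%) and 577 lower (8.74%) in members of Sham_D40 over Ctrl. Genes are therefore named for Graft_D40 where the call went the same way against Sham_D40 and against Ctrl, for which 706 genes were higher (10.7%) and 596 lower (9.01%) of 6615. The pathway lists are read first against Sham_D40, and the value against Ctrl is given beside it. Both comparisons share the Graft_D40 cells.

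Igfbp5 rose. It stood at 3464 CPM in members of Graft_D40 and 540 CPM in Graft_D19, against 313 CPM in Sham_D40 and 55.5 CPM in Ctrl. The ratio of Graft_D40 over Sham_D40 was 11.1 (9.60 to 12.8), a log2 ratio of 3.46 in members, against 2.71 in the other sinusoidal cells. Igfbp5 UMIs were found in 159 of 204 members of Graft_D40 and in 29 of 63 of Sham_D40, where 1 cell held 28.9% of them. In the 33 members of Graft_D40 and 7 of Sham_D40 left after thinning to 2000 UMIs, the log2 ratio was -0.03. Igfbp3 stood at 318 CPM in Graft_D40 and 122 in Graft_D19, against 72.6 in Sham_D40 and 72.2 in Ctrl, a log2 ratio of 2.12 over Sham_D40, which was -2.05 in the thinned members.

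Secreted and signalling genes were among the 10 named genes that rose. Stc1, a secreted glycoprotein of calcium and stress responses, stood at 217 CPM in Graft_D40 and 96.2 CPM in Graft_D19, against 4.84 CPM (3 UMIs) in Sham_D40 and 44.4 CPM in Ctrl. The ratio over Sham_D40 was 44.8 (15.2 to 218) and the log2 ratio over Ctrl was 2.26. Both grafted libraries lay above both ungrafted ones, and the ungrafted ones lay far apart. Slfn2, a growth regulator of the Schlafen family, stood at 248 CPM in Graft_D40 and 56.3 in Graft_D19, against 30.6 in Sham_D40 and 16.7 in Ctrl, a ratio of 8.10 over Sham_D40 (5.14 to 13.5).

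Ackr3, the scavenging receptor for Cxcl12, stood at 71.5 CPM in Graft_D40 and 21.9 CPM in Graft_D19, against 6.45 CPM in Sham_D40 and 0 in Ctrl. The ratio over Sham_D40 was 11.1 (4.25 to 41.1). Ccl2, a monocyte chemoattractant, stood at 71.9 CPM in Graft_D40, with no UMI in members of Sham_D40 or Ctrl. It was at least 14.9-fold higher than the limit of 3 UMIs in Sham_D40, yet only 15 cells held it and 1 cell held 43.2% of its UMIs.

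Matrix genes were also among the named rises. Col18a1, the source of endostatin in vascular basement membranes, stood at 120 CPM in Graft_D40 and 53.6 in Graft_D19, against 11.3 in Sham_D40 and 5.55 in Ctrl, a ratio of 10.7 over Sham_D40 (5.11 to 26.8). Adamtsl1, a secreted protein related to the ADAMTS proteases, stood at 93.6 CPM in Graft_D40 and 8.10 in Graft_D19, against 1.61 (1 UMI) in Sham_D40 and 0 in Ctrl, a ratio of 58.1 over Sham_D40 (10.3 to 2303). Col18a1 was lowest in the ungrafted libraries, while for Adamtsl1 the limit of 3 UMIs in Ctrl lies above the level of Graft_D19. Col13a1, a transmembrane collagen, stood at 57.0 CPM in Graft_D40 and 7.09 in Graft_D19, against 9.68 in Sham_D40 and 11.1 in Ctrl, so that Graft_D40 alone was high. The secreted protease Prss23 stood at 107 CPM in Graft_D40 and 40.2 in Graft_D19, against 22.6 in Sham_D40 and 16.7 in Ctrl. It rose in members (log2 ratio 2.20) and was not called in the other sinusoidal cells (0.51), a difference that was not tested.

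Vcam1, the adhesion molecule through which marrow endothelium holds leukocytes, fell in members. It stood at 60.0 CPM in Graft_D40 and 279 CPM in Graft_D19, against 569 CPM in Sham_D40 and 444 CPM in Ctrl, a ratio of 0.105 in Graft_D40 over Sham_D40 (0.0861 to 0.128). The other sinusoidal cells stood at 210 CPM in Graft_D40 and 586 in Graft_D19, against 881 in Sham_D40 and 519 in Ctrl, and the log2 ratio of Graft_D40 over Sham_D40 was -3.22 in members and -2.07 in them. E-selectin (Sele), which captures rolling leukocytes, stood at 31.9 CPM in Graft_D40 and 98.5 in Graft_D19, against 152 in Sham_D40 and 228 in Ctrl. Graft_D40 was lowest for both. Of 9 leukocyte adhesion genes measured, 5 fell and 2 rose, with a median log2 ratio of -0.60, while over Ctrl 4 of 10 fell and none rose, with a median of -0.20. Among the other sinusoidal cells 5 of 9 fell and 2 rose over Sham_D40, with a median of -0.997.

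Metabolic and stress genes were also among the 10 named falls. Lipg, the endothelial lipase, stood at 9.36 CPM in Graft_D40 and 43.2 CPM in Graft_D19, against 140 CPM in Sham_D40 and 144 CPM in Ctrl, a log2 ratio of -3.77 in members and -1.23 in the other sinusoidal cells. Rgs4, a brake on G-protein signalling, stood at 24.3 CPM in Graft_D40 and 57.0 in Graft_D19, against 235 in Sham_D40 and 200 in Ctrl. Cyp4b1, a cytochrome P450, stood at 84.3 CPM in Graft_D40 and 204 in Graft_D19, against 410 in Sham_D40 and 467 in Ctrl. For these 3 genes Graft_D40 was lowest, Graft_D19 next and the ungrafted libraries highest.

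Cxadr gave a log2 ratio over Sham_D40 of -2.41, the growth arrest gene Gadd45g -2.32 and the heat shock gene Hspa1b -1.97. Haptoglobin (Hp), which marrow stromal cells also express, stood at 13.6 CPM in Graft_D40 and 14.2 in Graft_D19, against 56.5 in Sham_D40 and 111 in Ctrl. The 11 markers of LepR stroma summed to 152 CPM in members of Graft_D40 and 238 in Graft_D19, against 379 in Sham_D40 and 378 in Ctrl, with 4 of the 11 at 0 in Ctrl, and their part in the fall of Hp was not tested.

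Part of the late difference was also called in the other sinusoidal cells. Of the 10 named falls, 9 were called lower there too. Of the 10 named rises, 4 were called higher there, 1 was not called and 5 were too low to be measured. Over the 6397 genes measured in both kinds of cell, 416 were higher in members, 261 in the other sinusoidal cells and 117 in both, which is 28.1% of the members' genes and 44.8% of the others'. Of the falls, 473 were called in members, 243 in the other sinusoidal cells and 155 in both. That is 32.8% of the members' genes and 63.8% of the others'. A further 29 of the members' falls were called higher in the other sinusoidal cells, and 1 of the members' rises was called lower there. Over all genes measured in the other sinusoidal cells, 4.85% were called higher and 4.19% lower. In Sham_D40 the members held 620012 UMIs and the other sinusoidal cells 6100893. The part of pool size in these overlaps was not tested.

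**Figure D4:**
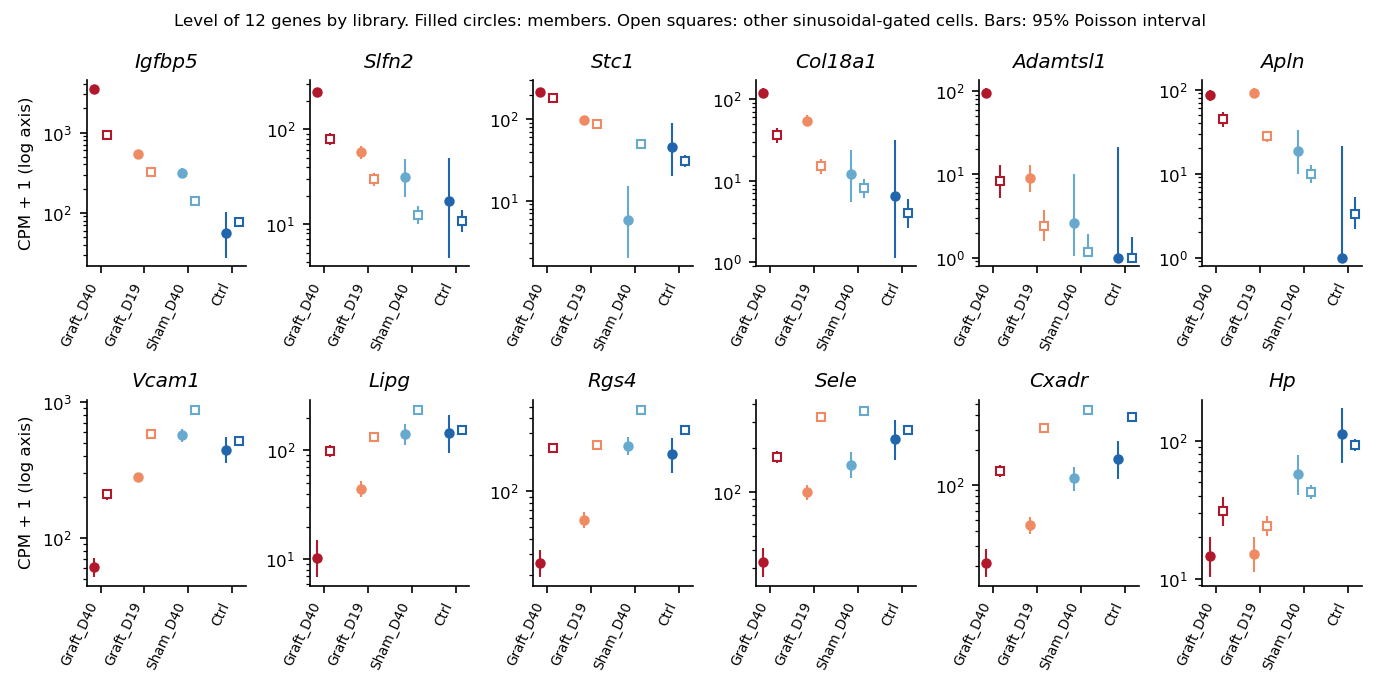
Level (CPM + 1, log axis) of 12 genes in members (filled circles) and other sinusoidal cells (open squares) of each library, with exact Poisson 95% intervals for counting error. In members, Igfbp5 was highest in Graft_D40 at 3464 CPM, and Vcam1 was lowest in Graft_D40 at 60.0 CPM.

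Most sinusoidal identity genes fell late after grafting. Of 13 measured in Graft_D40 over Sham_D40, 8 fell and 1 rose, with a median log2 ratio of -0.99, beside 0.00 over all genes. Over Ctrl, 8 fell and 1 rose, with a median of -1.11. The glycoprotein gene Gpm6a stood at 199 CPM in Graft_D40 and 287 in Graft_D19, against 531 in Sham_D40 and 644 in Ctrl. Il6st stood at 573 CPM in Graft_D40 and 847 in Graft_D19, against 1487 in Sham_D40 and 1239 in Ctrl, and the fatty acid receptor Cd36 at 208 CPM in Graft_D40 and 287 in Graft_D19, against 534 in Sham_D40 and 622 in Ctrl. All 3 were lowest in Graft_D40 and lower in both grafted libraries than in both ungrafted ones. The mannose receptor Mrc1 stood at 486 CPM in Graft_D40 and 743 in Graft_D19, against 1021 in Sham_D40 and 994 in Ctrl, and the inhibitory Fc receptor Fcgr2b at 190 CPM in Graft_D40 and 233 in Graft_D19, against 477 in Sham_D40 and 978 in Ctrl. The gene that rose was the endothelial sialomucin Emcn, at 1362 CPM in Graft_D40 and 951 in Graft_D19, against 823 in Sham_D40 and 855 in Ctrl, a log2 ratio of 0.73 that missed the call, at 0.51, among cells with exactly 2 of the 4 genes.

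Because the number of marker genes per cell was higher in the grafted libraries and sinusoidal genes were lower in cells with more of them, the list was also taken over cells with exactly 2 of the 4 genes. There, 8 of the sinusoidal identity genes fell, beside 7.01% of all genes, and the median log2 ratio was -0.96. Those cells still differed in median depth, at 9309.5 UMIs in Graft_D40 and 7809 in Sham_D40. Stab2 stood at 533 CPM in those of Graft_D40 and 1329 in those of Sham_D40. The part of marker number in the fall was not tested. In the other sinusoidal cells 7 of 13 fell, with a median of -0.70.

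Several basement membrane genes rose late after grafting. Of 15 measured in Graft_D40 over Sham_D40, 7 rose and 1 fell, with a median log2 ratio of 0.31. Over Ctrl, 8 rose and 1 fell, with a median of 0.98. The other sinusoidal cells had 7 of 13 higher and 1 lower over Sham_D40, with a median of 0.70. Col4a1 gave a log2 ratio of 0.98, and 0.55 with no call among cells with at least 3 of the 4 genes. Lama4, a laminin chain of vessels, stood at 149 CPM in Graft_D40 and 109 in Graft_D19, against 71.0 in Sham_D40 and 38.9 in Ctrl. Nid2, which links laminin to collagen, stood at 113 CPM in Graft_D40 and 90.8 in Graft_D19, against 53.2 in Sham_D40 and 11.1 in Ctrl. For both, the grafted libraries were above the ungrafted ones and Ctrl was lowest. Col15a1 stood at 68.5 CPM in Graft_D40 and 66.5 in Graft_D19, against 29.0 in Sham_D40 and 33.3 in Ctrl, and the call for Graft_D40 was not met against Ctrl, with a log2 ratio of 1.02.

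A share of the interferon-stimulated genes rose late after grafting. Of 30 measured, 13 rose and 1 fell in Graft_D40 over Sham_D40, with a median log2 ratio of 0.51. Over Ctrl, 14 of 31 rose and 2 fell, with a median of 0.80. Ifit1, which binds foreign RNA, stood at 80.9 CPM in Graft_D40 and 33.1 in Graft_D19, against 21.0 in Sham_D40 and 5.55 (1 UMI) in Ctrl. The ubiquitin-like Isg15 stood at 197 CPM in Graft_D40 and 172 in Graft_D19, against 69.4 in Sham_D40 and 83.3 in Ctrl, and Ifit3 at 146 CPM in Graft_D40 and 71.5 in Graft_D19, against 44.4 in Ctrl, with a log2 ratio of 1.53 over Sham_D40. Isg15 was high in both grafted libraries, the Ifit genes chiefly in Graft_D40. The guanylate-binding gene Gbp4 stood at 99.2 CPM in Graft_D40 and 37.8 CPM in Graft_D19, against 32.3 CPM in Sham_D40 and 44.4 CPM in Ctrl. Among the other sinusoidal cells 12 of 31 rose over Sham_D40, with a median of 0.33.

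For antigen presentation the answer depended on the ungrafted library. Against Sham_D40, 6 of 12 genes rose and none fell in Graft_D40, with a median log2 ratio of 0.67, and in the other sinusoidal cells 1 of 12 rose. Against Ctrl, 1 rose and the median was 0.21. The class I gene H2-Q7 stood at 153 CPM in Graft_D40 and 58.7 in Graft_D19, against 56.5 in Sham_D40 and 128 in Ctrl. H2-D1 stood at 1881 CPM in Graft_D40 and 981 in Graft_D19, against 1100 in Sham_D40 and 1366 in Ctrl, and was not called against Ctrl. H2-T23, a non-classical class I gene, stood at 334 CPM in Graft_D40 and 178 in Graft_D19, against 184 in Sham_D40 and 83.3 in Ctrl, and met the call against both, although its log2 ratio over Sham_D40 was -1.04 in the thinned members.

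Most immediate early genes, which respond within minutes to signals and to cell isolation, fell. Of 25 measured in Graft_D40 over Sham_D40, 16 fell and 1 rose, with a median log2 ratio of -0.72. Over Ctrl, 12 of 24 fell and 2 rose, with a median of -0.64. Fos stood at 227 CPM in Graft_D40 and 723 in Graft_D19, against 887 in Sham_D40 and 1294 in Ctrl. Egr1 stood at 119 CPM in Graft_D40 and 254 in Graft_D19, against 418 in Sham_D40 and 217 in Ctrl, and the mRNA decay factor Zfp36 at 56.2 CPM in Graft_D40 and 133 in Graft_D19, against 156 in Sham_D40 and 167 in Ctrl. Graft_D40 was lowest for all 3. In the other sinusoidal cells 13 of 25 fell. The gene that rose was Klf2, a factor induced by flow, at 747 CPM in Graft_D40 and 547 in Graft_D19, against 373 in Sham_D40 and 328 in Ctrl and called higher, but its log2 ratio was -1.16 in the thinned members.

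Several targets of BMP signalling were lower in Graft_D40. Id2 stood at 32.3 CPM in Graft_D40 and 119 CPM in Graft_D19, against 200 CPM in Sham_D40 and 117 CPM in Ctrl. Id3 stood at 677 CPM in Graft_D40 and 1095 in Graft_D19, against 1453 in Sham_D40 and 1672 in Ctrl, and Id1 at 169 CPM in Graft_D40 and 433 in Graft_D19, against 348 in Sham_D40 and 511 in Ctrl. In these inhibitors of differentiation Graft_D40 was lowest throughout. Of 18 TGF-beta and BMP genes measured, 8 fell and 2 rose over Sham_D40, including Pmepa1 at a log2 ratio of 1.03, with a median of -0.43. Over Ctrl, 4 fell and 4 rose, with a median of 0.15.

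Of 7 apelin, adrenomedullin and endothelin genes measured in Graft_D40 over Sham_D40, 3 rose and none fell, with a median log2 ratio of 0.06, and over Ctrl 1 rose and none fell, with a median of 0.53. Apln, which encodes apelin, the ligand of Aplnr, stood at 84.3 CPM in Graft_D40 and 90.8 in Graft_D19, against 17.7 in Sham_D40 and 0 in Ctrl. UMIs of Apln were found in 53 of 204 members of Graft_D40 and 68 of 224 of Graft_D19, against 5 of 63 of Sham_D40 and 0 of 28 of Ctrl, so both grafted libraries were above both ungrafted ones. Nos3, the endothelial nitric oxide synthase, stood at 103 CPM in Graft_D40 and 58.7 in Graft_D19, against 33.9 in Sham_D40 and 55.5 in Ctrl, and was not called against Ctrl. Ramp2, which gives the calcitonin receptor-like receptor its affinity for adrenomedullin, stood at 984 CPM in Graft_D40 and 668 in Graft_D19, against 624 in Sham_D40 and 1011 in Ctrl, and its log2 ratio of 0.66 over Sham_D40 was -0.04 over Ctrl. Aplnr and Tcim gave -0.02 and -0.08 over Sham_D40 and were not called. Cd34 rose, with a log2 ratio of 1.35, against 2.94 in the other sinusoidal cells.

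**Figure D5:**
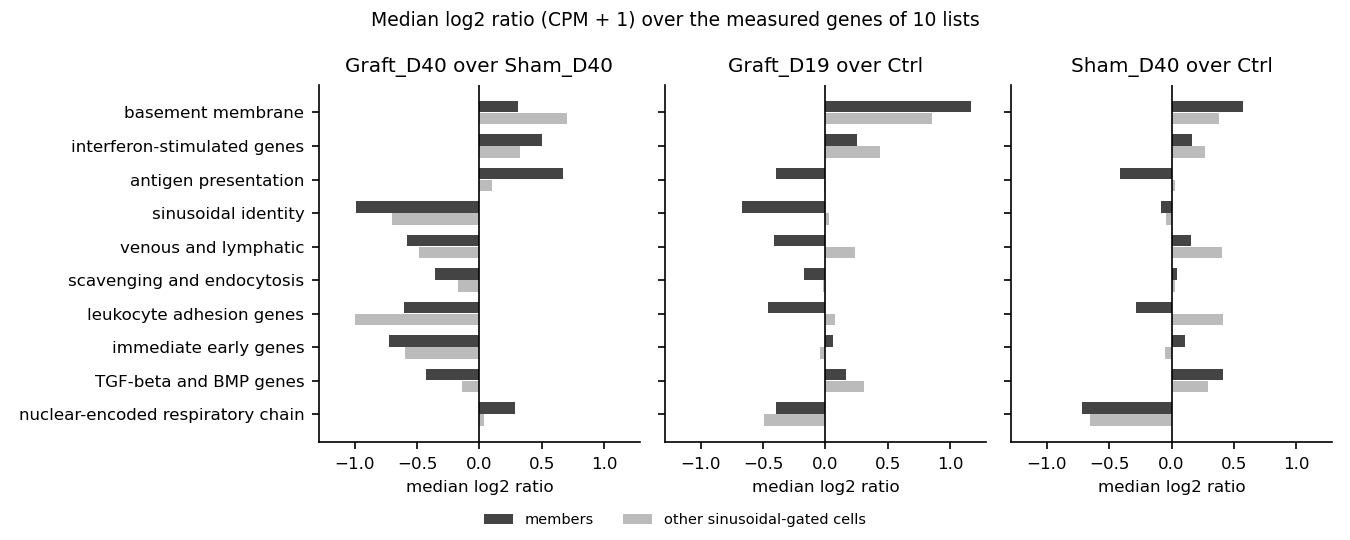
Median log2 ratio of each gene list in members and in the other sinusoidal cells, for Graft_D40 over Sham_D40, Graft_D19 over Ctrl and Sham_D40 over Ctrl. In members the sinusoidal identity list lies at -0.99 in Graft_D40 over Sham_D40, -0.67 in Graft_D19 over Ctrl and -0.08 in Sham_D40 over Ctrl, and the basement membrane list at 0.31 in Graft_D40 over Sham_D40, 1.17 in Graft_D19 over Ctrl and 0.57 in Sham_D40 over Ctrl.

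Early after grafting the comparison was with Ctrl, whose 28 members held 180022 UMIs. Of 6631 genes measured in Graft_D19 over Ctrl, 603 were called higher (9.09%) and 510 lower (7.69%), with a median log2 ratio over all genes of 0.08. Against Sham_D40, 374 of 6802 genes were higher (5.5%) and 435 lower (6.4%). These shares lie near those between the ungrafted libraries, and Graft_D19 has no sham of its own day. Of the 5 named rises, 4 were too low to be measured in the other sinusoidal cells.

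The named rises of Graft_D19 rested on few cells. Rgs5, a pericyte gene, stood at 138 CPM in Graft_D19, against 3.23 CPM in Sham_D40 and 0 in Ctrl, but 5 cells held it and 1 held 51.2% of its UMIs. Mmp9, a gelatinase, stood at 102 CPM in Graft_D19 with no UMI in Graft_D40, Sham_D40 or Ctrl, and 99.0% of it lay in 1 cell. The histone gene Hist1h2ap stood at 51.6 CPM in Graft_D19, with 88.2% in 1 cell. The proliferation gene Mki67 stood at 9.79 CPM in Graft_D40 and 90.4 in Graft_D19, against 1.61 in Sham_D40 and 0 in Ctrl, and was found in 11 of 224 members of Graft_D19. Top2a stood at 25.1 CPM in Graft_D40 and 84.7 in Graft_D19, against 3.23 in Sham_D40 and 0 in Ctrl, and was found in 10 of those members. Against the limit of 3 UMIs in Ctrl, Mki67 was at least 5.43-fold and Top2a at least 5.08-fold higher in Graft_D19. Of the members, 8 in Graft_D19, 5 in Graft_D40, 4 in Sham_D40 and 0 in Ctrl carried 20 or more UMIs of other cell types' markers per 10000, and the 8 held 74.8% of such UMIs in Graft_D19. The chondrocyte markers summed to 875 CPM in Graft_D40 members and 2832 in Graft_D19, against 502 in Sham_D40 and 16.7 in Ctrl. In Ctrl members 7 of 10 were at 0. In the other sinusoidal cells they summed to 5788 CPM in Graft_D40 and 923 in Graft_D19, against 648 in Sham_D40 and 265 in Ctrl. Of those cells, 12 of 230 in Graft_D40 held 81.3% of the UMIs of other cell types' markers there. The part of such UMIs in these rises and in the ratios of members over other sinusoidal cells was not tested.

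Most basement membrane genes rose early. Of 15 measured in Graft_D19 over Ctrl, 11 rose and none fell, with a median log2 ratio of 1.17, and in the other sinusoidal cells 8 of 11 rose, with a median of 0.85. Over all genes in the other sinusoidal cells, 16.2% were called higher and 7.03% lower, with a median of 0.17. Against Sham_D40, 8 rose in members, with a median of 0.60. Among members with exactly 2 of the 4 genes the count over Ctrl was 4, with 1 lower, beside 6.61% of all genes called higher, with a median of 0.67. Col4a2, the partner chain of Col4a1, stood at 1074 CPM in Graft_D40 and 895 in Graft_D19, against 589 in Sham_D40 and 322 in Ctrl. The log2 ratios of Graft_D19 over Ctrl were 1.30 for Col4a1, 1.47 for Col4a2, 1.47 for Lama4, 2.92 for Nid2 and 3.06 for Col18a1, the last against 1 UMI in Ctrl. Sham_D40 itself had 5 of 14 basement membrane genes higher than Ctrl, with a median of 0.57.

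Several sinusoidal identity genes fell early in members. Of 13 measured in Graft_D19 over Ctrl, 6 fell and none rose, with a median log2 ratio of -0.67, and in the other sinusoidal cells 2 fell, with a median of 0.03. The difference between the kinds of cell was not tested. Fcgr2b gave -2.06, the nuclease Dnase1l3 -1.33, the coagulation inhibitor Tfpi -1.30 and Gpm6a -1.16. Ctsl, a lysosomal protease of the scavenging list, stood at 685 CPM in Graft_D40 and 838 in Graft_D19, against 1369 in Sham_D40 and 3516 in Ctrl, so that Ctrl was far above Sham_D40 as well. Between the ungrafted libraries, 1 of the 13 genes was called lower in Sham_D40 over Ctrl, with a median of -0.08.

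Other falls at day 19 shared genes with the late ones. Hp gave a log2 ratio over Ctrl of -2.89, Hspa1b -2.21, Rgs4 -1.79 and Lipg -1.72. Depp1, a FOXO target, stood at 57.5 CPM in Graft_D40 and 51.3 in Graft_D19, against 132 in Sham_D40 and 344 in Ctrl. Ackr1 gave -2.08 over Ctrl and missed the call over Sham_D40, at -0.52. Interferon-stimulated genes were mixed, with 7 of 28 higher and 4 lower, among them Oasl2 at 1.64, Rnf213 at 2.20 and the chemokine gene Cxcl9 at -1.85.

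Igfbp5, Apln and Cd34, which rose in members by day 40, were also higher at day 19. Igfbp5 gave a ratio of 9.72 in Graft_D19 over Ctrl (5.27 to 20.3), against 10 UMIs in 6 Ctrl members, and a log2 ratio of 0.79 over Sham_D40. Apln was at least 5.45-fold higher than the limit of 3 UMIs in Ctrl. Cd34 gave a log2 ratio of 1.48 over Ctrl, and Aplnr gave 0.88 and Tcim 0.62. Over Sham_D40, the comparator used at day 40, these genes lay under the 1.5-fold limit of a call in Graft_D19. Aplnr stood at 616 CPM in Graft_D19 and 492 in Sham_D40, and Tcim at 418 in Graft_D19 and 398 in Sham_D40. Aplnr and Tcim were not called at day 40 over Sham_D40 either. Smad7, an inhibitor of TGF-beta and BMP signalling, gave 1.56 over Ctrl and -0.67 over Sham_D40, opposite directions that both met the call.

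Measures of RNA quality in members were close between libraries for mitochondrial UMIs and less so for ribosomal ones. Mitochondrial UMIs made up 3.03% in Graft_D40 and 3.15% in Graft_D19, against 3.48% in Sham_D40 and 2.91% in Ctrl. Ribosomal protein UMIs made up 12.1% in Graft_D40 and 12.5% in Graft_D19, against 9.32% in Sham_D40 and 14.5% in Ctrl, and 17 of 26 nuclear-encoded respiratory chain genes were lower in Sham_D40 over Ctrl. Their part in the differences between libraries was not tested.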

How the data were processed

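Sorted stromal and endothelial cells of mouse femurs were profiled by droplet single-cell RNA sequencing (10x Genomics, per the labels' protocols) in 4 libraries, 1 per group. The authors deposited matrices of raw UMI counts per gene and cell barcode. The submitters' processing notes name mm10 and Cell Ranger 3.1.0, while Cell Ranger 5.0.0 is named per the file headers. The libraries held 72204599 (Graft_D40), 63214301 (Graft_D19), 51744386 (Sham_D40) and 18533482 (Ctrl) gene UMIs in 6674, 7668, 5750 and 5537 barcodes.

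Cells were filtered and chosen by the stated rule, and doublets were called with Scrublet through scanpy 1.11.5 and kept unless stated. UMIs were summed over the chosen cells of a library and scaled to CPM. With 1 library per group there is no test. Levels have exact Poisson intervals, ratios exact conditional binomial intervals and shares exact Clopper-Pearson intervals (scipy 1.17.1), all at 95% and for counting error only, since PCR and capture add more. Log2 ratios used a pseudocount of 1 CPM. The procedure was run on simulated Poisson counts, the model that the intervals assume. Such counts leave out uneven levels between cells, so the run cannot show their effect on the calls. Bulk means over members cannot tell a few high cells from many moderate ones, so cells with a UMI are given where that matters.

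Named genes for Graft_D40 (10 each way) and Graft_D19 (5 each way) were at 50 CPM or more in the grafted library or in both ungrafted libraries and were called the same way against Sham_D40 and Ctrl, ranked by the smaller ratio. Named genes of members over other sinusoidal cells were called alike in all 4 libraries. Mitochondrial, ribosomal, haemoglobin, immunoglobulin, Y-linked, Xist, Tsix, unnamed and blood cell marker genes were left out, and 2 to 4 called genes were added per list. Of the genes the rule names, 2 are not reported here. Beyond the rule, the text names the genes that chose the cells, genes that check the label, Aplnr and Tcim, and a gene singled out in a count, such as Emcn, Klf2 or Sdk2, whose values had been seen. The members and lists were chosen with earlier results of these data known. The 2 antibody features were left out of all sums. Alternatives were other depths, other numbers of marker genes, a stricter stromal limit, removal of called doublets, equal weight per cell, centring, another pseudocount, other minimum levels and the other ungrafted library. Promoters were RefSeq windows of GRCm38.p6.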

Additional observations from a re-analysis of the deposited data

Results flagged for a closer look

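Sdk2, an adhesion protein of the immunoglobulin superfamily, went opposite ways in the members and in the other sinusoidal cells late after grafting. In members it stood at 10.2 CPM in Graft_D40 and 21.9 in Graft_D19, against 33.9 in Sham_D40 and 33.3 in Ctrl, a log2 ratio of -1.64 in Graft_D40 over Sham_D40. In the other sinusoidal cells it stood at 41.7 CPM in Graft_D40 and 23.4 in Graft_D19, against 26.9 in Sham_D40 and 21.4 in Ctrl, a log2 ratio of 0.62. The opposite calls also held for Graft_D40 over Ctrl. Over Sham_D40, 29 of the 6397 genes measured in both kinds of cell went this way. Of those 6397 genes, 473 were called lower in members and 261 higher in the other sinusoidal cells. Over all genes measured in the other sinusoidal cells, 4.85% were called higher. The count of opposite calls was not tested against these numbers. A further 1 of the 6397 was called higher in members and lower in the others. Over Ctrl, 2 of 6112 genes went the way of Sdk2 and 2 the other way. The gene was chosen after its values were seen, and the difference between the kinds of cell was not tested.

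The 2 antibody features of the day 40 libraries, which no comparison used, separated those libraries in every member. B0302 had a median of 2093.5 UMIs per member cell in Graft_D40 and was higher than B0301 in 204 of 204 members. B0301 had a median of 596 UMIs per member cell in Sham_D40 and was higher in 63 of 63 members. The weaker feature had a median of 2 UMIs in Graft_D40 and 12 in Sham_D40. The sources used here do not say what the features mark.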

How the results depend on the processing

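Of 1104 alternative values for 87 gene ratios, 990 kept direction and call, 1 gained the call, 12 changed direction and the others missed the call. Among the values from cells thinned to 2000 UMIs, 23 kept direction and call, 37 missed the call and 6 changed direction. No paired analysis was possible because each group was 1 library. Thinning every cell to 2000 UMIs left 33 members in Graft_D40 and 42 in Graft_D19, against 7 in Sham_D40 and 7 in Ctrl, gave no value for 21 gene ratios, and gave ratios over Sham_D40 of -1.04 for H2-T23, -2.05 for Igfbp3, -0.028 for Igfbp5, -1.16 for Klf2 and -0.51 for Ramp2, and over Ctrl of 0 for Tcim and a median of -0.17 for matrix remodelling enzymes. With exactly 2 of the 4 genes, Tcim gave 0.61 in Graft_D40 over Sham_D40 and the cell cycle list a median of -0.15 in Graft_D19 over Ctrl. With at least 3, H2-T23 gave -0.32 in Graft_D19 over Ctrl. With the other ungrafted library, Graft_D19 gave 0.056 for H2-Q7, -0.045 for H2-T23, -0.67 for Smad7, and medians of -0.28 for axon guidance and -0.092 for interstitial matrix genes, and Graft_D40 gave -0.040 for Ramp2. The cause was not tested beyond the smaller pools of cells.

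Counts of called genes moved with the pool of cells. For Graft_D40 over Sham_D40 the rises were 35 (thinned), 281 (minimum of 50 CPM) and 706 (over Ctrl), and the falls 125 (thinned), 294 (50 CPM) and 819 (no minimum). For Graft_D19 over Ctrl the rises were 48 (thinned), 173 (at least 3 genes), 1268 (at least 1) and 374 (over Sham_D40), and the falls 214 (thinned). For Sham_D40 over Ctrl the rises were 52 (thinned), 175 (at least 3) and 1206 (at least 1), and the falls 82 (thinned). For members over other sinusoidal cells the genes called higher were 1 (thinned), 18 (at least 3), 9 (at least 1), 16 (50 CPM), 14 (exactly 2) and 78 (without Ctrl), and those called lower 2 (thinned), 1 (at least 1), 35 (centred), 11 (exactly 2) and 88 (without Ctrl).

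Shares of members followed depth and the rule. In Graft_D40 they were 3.59% (1000 UMIs), 24.4% (4000 UMIs), 47.0% (unthinned), 2.38% (at least 3 genes), 39.1% (at least 1) and 3.25% (of endothelial cells). In Graft_D19 they were 2.21%, 11.1%, 25.5%, 1.44%, 27.1% and 3.75% under those settings. In Sham_D40 they were 1.08% (1000 UMIs), 4.38% (4000 UMIs), 8.59% (unthinned), 0.153% (at least 3) and 16.8% (at least 1), and in Ctrl 0% (1000 UMIs), 2.89% (unthinned), 0.281% (at least 3) and 10.7% (at least 1). The settings with exactly 2 genes, without cells holding other cell types' UMIs and without Ctrl were chosen after seeing the data. Ctrl members limit the depth of every value over Ctrl.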

Other observations

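Close to the stromal limit, 4 cells of Graft_D40 and 8 of Graft_D19, against 4 of Sham_D40 and none of Ctrl, met every other condition of the rule but had 20 to 40 UMIs of Col1a2 plus Cxcl12 per 10000. Just inside the limit, at 10 to 20 per 10000, lay 12 members of Graft_D40 and 10 of Graft_D19, against 2 of Sham_D40 and 3 of Ctrl.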
